A study of Mus musculus with 30 samples.

Results

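Claudins are the membrane proteins that form the strands of the tight junction. The 8 claudin genes described here, Cldn2, Cldn3, Cldn4, Cldn7, Cldn8, Cldn12, Cldn15 and Cldn23, were taken by name from the 13456 genes that the deposited tables list between them. Their mRNA was measured in 30 mouse libraries, in 10 groups of 3, from 3 systems. The first system was colon epithelium of C57BL/6J mice, either Smad4+ controls or Smad4ΔLrig1 knockouts. That name points to deletion of Smad4 in cells marked by Lrig1, and the labels do not name the Cre allele, the induction, the age or the sex. The second was colonocytes in culture labelled IMCfl/fl Smad4+, an abbreviation that the labels do not expand, either untreated or exposed to TNF, to TGFB1 plus BMP2, or to these 3 ligands at once, at doses that the labels leave out. The third was colonoids, colon epithelium grown as organoids, in 3 lines named L42, L43 and L46. They received vehicle, TNF at 100 ng/mL, TGFB1 at 3 ng/mL with BMP2 at 10 ng/mL, or all 3. Their genotype and the length of treatment are not stated in the labels. SMAD4 carries the signal of TGFB1 and of BMP2 into the nucleus, whereas TNF, a cytokine of inflammation, signals largely by way of NF-kB.

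In the tight junction, claudins of neighbouring cells bind each other and close the gap between the cells, and occludin and the ZO scaffold proteins are built into the same strands. Some claudins seal this path, and others form pores that let small ions through. CLDN2 and CLDN15 are pore formers for cations and, in CLDN2, water. CLDN3, CLDN4, CLDN7 and CLDN8 are mostly described as sealing or barrier claudins of the colon, CLDN7 also sits along the lateral membrane with EPCAM, and CLDN12 and CLDN23 are less well characterised. Raised CLDN2 and loss of sealing claudins are known from inflamed colon.

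All 8 genes were listed in the colon table and in the 3 colonoid tables. In the 3 colonocyte tables only Cldn12 and Cldn15 were listed, so Cldn2, Cldn3, Cldn4, Cldn7, Cldn8 and Cldn23 have no value there, which is a statement on the tables and not a level of 0. In mm10 with GENCODE M21, 4 of the 8 genes lie on chromosome 5. Cldn4 is at chr5:134945119-134946934 on the minus strand and Cldn3 close by at chr5:134986214-134987472 on the plus strand. Cldn15 is at chr5:136966616-136975858 on the plus strand and Cldn12 at chr5:5489537-5514958 on the minus strand. The others are Cldn2 at chrX:139800828-139811386 and Cldn7 at chr11:69964779-69967885 on the plus strand, and Cldn8 at chr16:88560828-88563183 and Cldn23 at chr8:35824712-35826559 on the minus strand. Every value below counts reads over the whole gene. Cldn3 is overlapped on the opposite strand by Wbscr25, and no source used here gives the strand setting of the counting, so reads of the pair cannot be assigned with certainty.

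Promoters are shown for members among the 4 that changed most in the colonoids with TGFB1 and BMP2. They are those of Cldn4, which rose, and of Cldn15 and Cldn2, which fell. Cldn8, also among the 4, was not matched in the promoter table. Each promoter shown is the 250 bases before a RefSeq start on GRCm38.p6, written 5′ to 3′ on the gene's strand. That of Cldn15 lies inside the gene as annotated above from chr5:136966616. Its RefSeq start is therefore downstream of the annotated gene start. Capitals mark a match on either strand to 1 of the 6 motifs searched.
Cldn4, chr5:134946935-134947184, minus strand: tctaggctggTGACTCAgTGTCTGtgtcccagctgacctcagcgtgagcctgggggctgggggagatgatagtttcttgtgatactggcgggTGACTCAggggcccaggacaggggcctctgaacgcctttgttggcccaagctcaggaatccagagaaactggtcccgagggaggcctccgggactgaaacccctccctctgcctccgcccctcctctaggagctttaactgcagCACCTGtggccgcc
Cldn15, chr5:136967619-136967868, plus strand: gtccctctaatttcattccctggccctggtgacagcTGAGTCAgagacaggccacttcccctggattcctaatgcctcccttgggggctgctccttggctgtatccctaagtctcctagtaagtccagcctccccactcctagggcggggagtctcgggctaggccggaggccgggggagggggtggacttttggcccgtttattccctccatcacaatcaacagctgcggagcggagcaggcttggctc
Cldn2, chrX:139800558-139800807, plus strand: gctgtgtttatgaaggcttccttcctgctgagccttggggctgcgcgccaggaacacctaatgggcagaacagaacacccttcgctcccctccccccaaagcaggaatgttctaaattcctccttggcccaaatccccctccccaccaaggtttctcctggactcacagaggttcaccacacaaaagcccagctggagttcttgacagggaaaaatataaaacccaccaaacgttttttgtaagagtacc
The motifs were the SMAD palindrome GTCTAGAC, the GC-rich SMAD motif GGCGCC, the short SMAD-binding motif CAGACA, the AP-1 motif TGANTCA, the Snail and Zeb E-box CAGGTG and the NF-kB motif. The Cldn4 window held TGANTCA with its first base 240 and 158 bases before the start, CAGACA at 232 and CAGGTG at 14, with no overlap among them. The Cldn15 window held TGANTCA at 214, and the Cldn2 window held none of the 6. Of the other windows matched, 1 of those of Cldn7 held CAGGTG at 97 and 57. Over all 32851 windows of this length, TGANTCA was found in 6.75%, CAGACA in 17.1%, CAGGTG in 17.2%, GGCGCC in 9.59%, the NF-kB motif in 7.25% and GTCTAGAC in 0.167%. A match describes the letters of a window and not a bound site. The RefSeq table matched 6 of the 8 members.

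Values are CPM as deposited, read counts scaled by a library size that the authors set within each table. A library shared by 2 tables therefore has different values in each. Colonoid values per kilobase of exon are on a scale joined over the 3 colonoid tables. Changes are differences of mean log2(CPM + 1), a scale that understates the change of low genes. A gene is said to rise or fall where limma's test over all genes of a table gave a Benjamini-Hochberg adjusted p under 0.05. Recovered reads per library were 23.2 to 28.6 M in the colon, 21.6 to 42.9 M in the colonocytes and 42.2 to 61.7 M in the colonoids. Smad4 itself was 132, 148 and 152 CPM in the controls and 47.8, 59.2 and 46.1 CPM in the knockouts, so that 35.4% of the control level was left (change -1.49, SE 0.12, adjusted p = 7.01e-05 by limma). All 9 epithelial markers were listed in the colon and the colonoids. In the colonocytes only 3 or 4 of the 9 were listed: Epcam, Krt20, Vil1, Cdx1 and Cdx2 were not, whereas Vim was at 3078 ± 84.98 CPM and Col1a1 at 2119 ± 145 CPM (SD, n = 3) in the untreated group. The labelled cell type of the colonocytes is thus without most of its defining markers in these tables.

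Per kilobase of exon, which allows genes to be ranked within a group, control colon epithelium carried mostly Cldn7 and Cldn3. Cldn7 stood at 424 ± 31.9 CPM per kilobase and Cldn3 at 375 ± 37.9 CPM per kilobase (SD, n = 3). Cldn15 at 144 ± 4.92 and Cldn2 at 107 ± 3.01 CPM per kilobase, both pore formers, followed. The sealing claudin Cldn4 was last of the 8, at 4.99 ± 0.230 CPM per kilobase. Vehicle colonoids differed in this order. Cldn3 at 295 ± 39.2, Cldn4 at 288 ± 69.4 and Cldn7 at 284 ± 13.9 CPM per kilobase were level within their spread, and Cldn8, a barrier claudin of the distal colon, was last at 5.07 ± 2.44 CPM per kilobase. Tissue and colonoids come from separate tables and experiments, so only the order within each is given.

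Loss of Smad4 in colon epithelium changed 5 of the 8 claudins: Cldn8 and Cldn2 rose, and Cldn15, Cldn3 and Cldn4 fell. Of all 11607 genes tested, 39.7% were called (19.8% higher and 19.9% lower), so the share of members called is to be read against a broad change. The median change of the 8 was -0.12, against 0.00 for all genes. In 6 of the 8 the groups did not overlap, which held for 50.2% of all genes. Without control replicate 2 or knockout replicate 2, 3 members passed, and 2723 or 2709 genes in all against 4611. In bulk RNA, fewer cells of a type and less RNA per cell cannot be told apart, here and in the comparisons that follow.

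**Figure D1:**
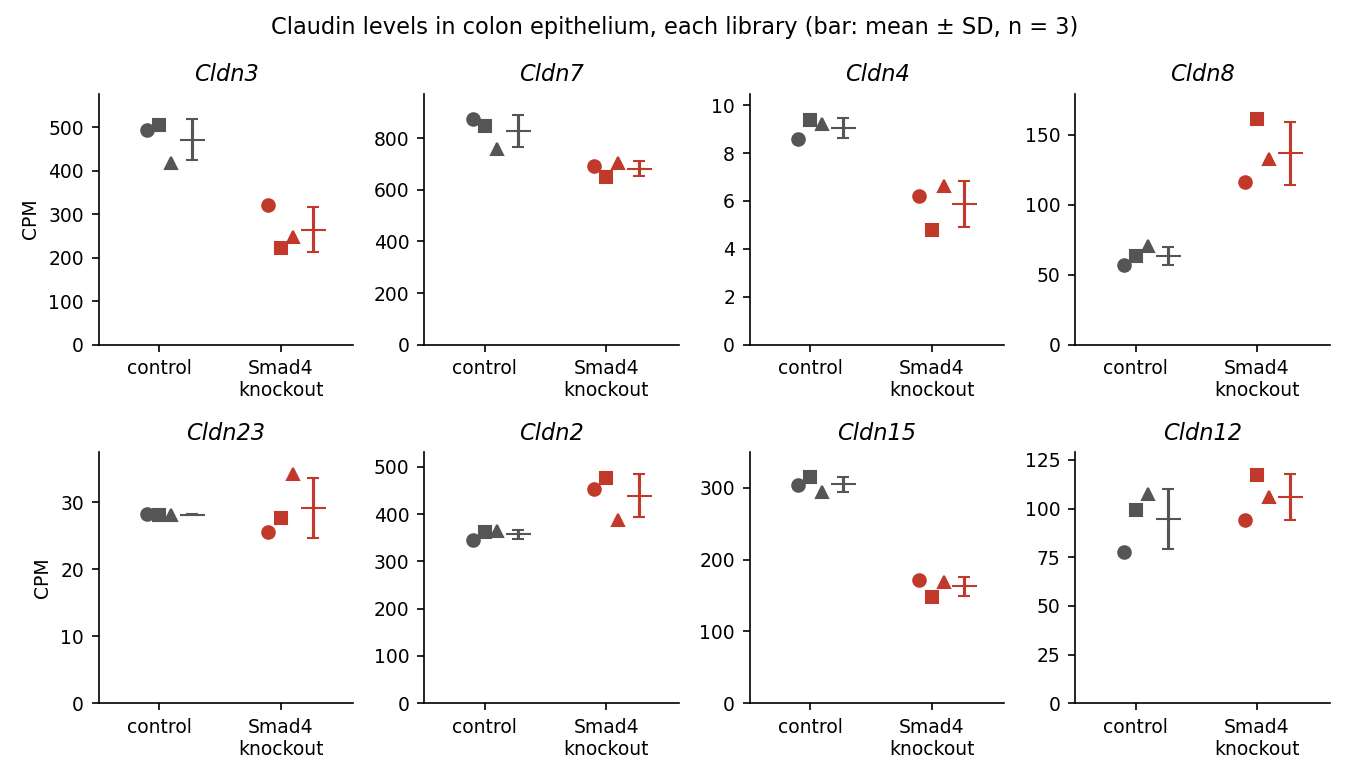
CPM on a linear axis of the 8 claudins in colon epithelium, for 3 Smad4+ controls and 3 Smad4ΔLrig1 knockouts. Each library is a point, and a bar gives each group mean with its SD. The groups stand apart for Cldn8, Cldn15, Cldn3, Cldn4, Cldn2 and Cldn7 and overlap for Cldn12 and Cldn23.

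Among the pore formers, Cldn15 was 304, 316 and 295 CPM in the controls and 172, 148 and 169 CPM in the knockouts. Every knockout lay far below every control, and the change was -0.90 (SE 0.10, adjusted p = 0.000227 by limma). The other pore former went the opposite way: Cldn2 was 346, 362 and 364 CPM in the controls and 453, 477 and 388 CPM in the knockouts. All 3 knockouts were above all 3 controls, by 0.29 (SE 0.10, adjusted p = 0.0457 by limma). That call is marginal. It held without knockout replicate 3 and was lost in the other 5 fits that left out a library (changes 0.23 to 0.31, adjusted p 0.0793 to 0.182) and with edgeR (adjusted p = 0.0537).

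Among the barrier claudins, Cldn8 was 57.2, 63.2 and 70.1 CPM in the controls and 116, 161 and 133 CPM in the knockouts. The lowest knockout was well above the highest control, and the change was 1.09 (SE 0.13, adjusted p = 0.000414 by limma), the largest among the members in this tissue. Cldn3 was 494, 505 and 417 CPM in the controls and 322, 222 and 249 CPM in the knockouts, with no overlap (change -0.85, SE 0.14, adjusted p = 0.00162 by limma). Cldn4, which is scarce in this tissue, was 8.59, 9.39 and 9.20 CPM in the controls and 6.20, 4.81 and 6.61 CPM in the knockouts. It fell by 0.56 (SE 0.15, adjusted p = 0.0136 by limma), on 244 to 254 reads per control library and 119 to 162 per knockout library. Without control replicate 2 its adjusted p was 0.0629 and without knockout replicate 2 it was 0.0655.

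Cldn7, the most abundant claudin per length in this tissue, was 875, 848 and 756 CPM in the controls and 692, 648 and 703 CPM in the knockouts. The groups did not overlap, but the change of -0.28 (95% interval -0.50 to -0.05) missed the threshold (adjusted p = 0.0517 by limma) and passed it with DESeq2 (adjusted p = 0.0271). Cldn12 was 77.6, 99.1 and 107 CPM in the controls and 94.1, 117 and 106 CPM in the knockouts, overlapping, with a change of 0.17 (95% interval -0.13 to 0.47, adjusted p = 0.35 by limma). Cldn23 was 28.2, 28.1 and 28.1 CPM in the controls and 25.6, 27.7 and 34.2 CPM in the knockouts (change 0.04, 95% interval -0.24 to 0.32, adjusted p = 0.829 by limma). Its controls were almost level while the knockouts spread to both sides of them.

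Per kilobase, the 8 genes together came to 1120 ± 66.5 CPM in the controls and 870 ± 41.7 CPM in the knockouts (SD, n = 3). Within that sum Cldn3 made up 33.4% ± 1.45 in the controls and 24.0% ± 3.48 in the knockouts, and Cldn15 12.8% ± 0.438 and 8.81% ± 0.460. Cldn2 took 9.63% ± 0.767 in the controls and 15.2% ± 1.79 in the knockouts, and Cldn8 2.42% ± 0.386 and 6.71% ± 1.40. Cldn7 remained the largest share, at 37.9% ± 0.990 and 40.2% ± 1.69. The pore formers thus swapped places in the order: Cldn15 was above Cldn2 in the controls and below it in the knockouts.

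Among the claudins' partners at the tight junction, of 30 listed genes 4 rose and 2 fell, with a median change of -0.02. Of all 11607 genes tested in the colon, 19.8% rose and 19.9% fell, a larger share each way than among these partners. Tjp1, which encodes the scaffold ZO-1, was 100 ± 4.39 CPM in the controls and 165 ± 7.41 CPM in the knockouts (SD, n = 3) and rose by 0.72 (adjusted p = 0.000465 by limma). Prkcz, the polarity kinase PKC zeta, was 98.0 ± 9.57 CPM and 50.2 ± 1.87 CPM and fell by 0.95 (adjusted p = 0.000258 by limma). Of 18 genes of adherens junctions and desmosomes 7 rose and 2 fell. The desmosomal cadherin Dsg2 was among those that rose (change 0.58, adjusted p = 0.00122 by limma). Epcam, whose protein binds CLDN7, was 1976 ± 39.7 and 2134 ± 136 CPM (change 0.11, adjusted p = 0.447 by limma). Spint2, an inhibitor of the proteases that cleave EPCAM, was 1158 ± 32.1 and 864 ± 72.7 CPM (change -0.42, adjusted p = 0.00982 by limma).

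Of 15 listed transcription factors tied to claudin genes, 2 rose and 6 fell, against 19.8% rising and 19.9% falling among all genes. Cdx2, an intestinal factor known to act on Cldn2, was 436 ± 18.4 CPM in the controls and 277 ± 21.6 CPM in the knockouts (change -0.65, adjusted p = 0.000935 by limma). Ovol1 was 44.0 ± 1.72 and 18.5 ± 2.37 CPM (change -1.21, adjusted p = 0.00018 by limma), and Klf5 rose by 0.96 (adjusted p = 0.000919 by limma). The summed level of the 9 epithelial markers was 14893 to 15751 CPM in the controls and 11136 to 13846 CPM in the knockouts. Of these 9 markers, 1 rose (Cdh1) and 3 fell (Cdx2, Cdx1 and Krt8), so the fall of the sum was not shared by all. The 7 listed of 12 leukocyte markers summed to 53.2 to 77.8 CPM and 68.8 to 80.2 CPM, with 1 rising and 2 falling. Igj, a plasma cell gene, rose from 10.5 ± 4.85 to 24.5 ± 2.67 CPM (adjusted p = 0.00722 by limma). Cd3d, a T cell gene, fell from 4.68 ± 1.45 to 2.02 ± 0.275 CPM (adjusted p = 0.00807 by limma), and Coro1a from 10.97 ± 2.90 to 5.52 ± 1.42 CPM (adjusted p = 0.00997 by limma). The 2 listed of 9 stromal markers summed to 21.5 to 22.6 CPM and 14.5 to 17.0 CPM, and none of 5 endothelial markers was listed. Their part in the claudin values was not tested.

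In the colonoids, TGFB1 with BMP2 changed all 8 claudins, 4 upward and 4 downward. Cldn4, Cldn23, Cldn7 and Cldn3 rose, and Cldn15, Cldn2, Cldn8 and Cldn12 fell. The changes of Cldn4, Cldn15, Cldn2 and Cldn8 were several-fold, and Cldn4 had the highest level per length of the 8 with the ligands. Of 11633 genes tested 56.7% were called (28.0% higher and 28.7% lower), and the groups did not overlap in 8 of 8 members and in 68.0% of all genes. The median change was 0.04 for the members and -0.02 for all genes.

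**Figure D2:**
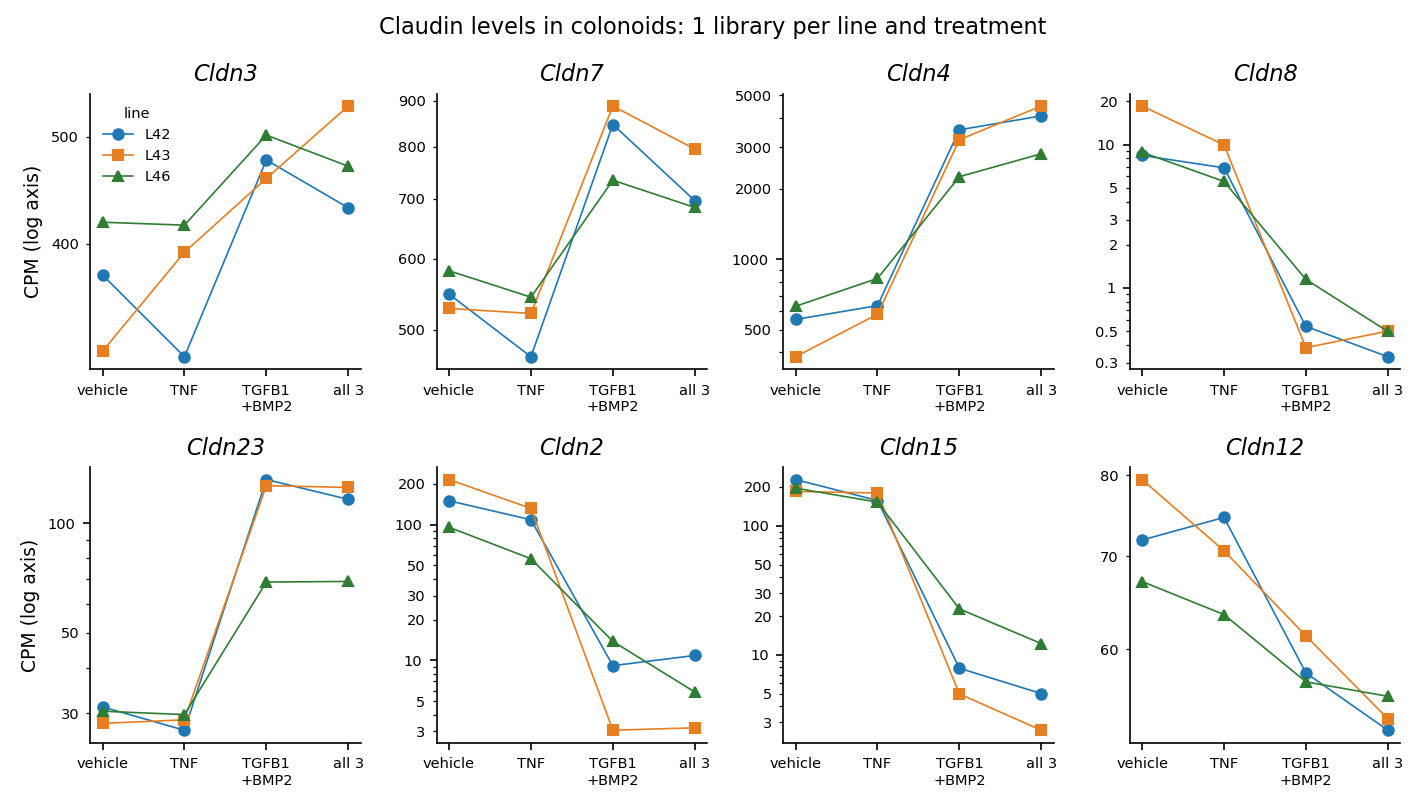
CPM on a log axis of the 8 claudins in the colonoids, by treatment, one point per line (L42, L43 and L46) on the scale joined over the 3 colonoid tables. Cldn15, Cldn2 and Cldn8 drop and Cldn4 and Cldn23 climb in both treatments that contain TGFB1 and BMP2.

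Among the sealing claudins, Cldn4 was 550, 385 and 633 CPM with vehicle and 3579, 3240 and 2254 CPM with TGFB1 and BMP2, in the lines L42, L43 and L46. Every treated line was far above every vehicle line, and the means differed 5.79-fold (change 2.53, SE 0.25, adjusted p = 0.00136 by limma). The change by line was 2.70, 3.07 and 1.83.

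Cldn8 went the opposite way, from 8.35, 18.6 and 8.89 CPM to 0.540, 0.383 and 1.15 CPM. The treated lines kept 5.77% of the vehicle mean, on 20 to 62 reads per library against 428 to 1035 (change -2.88, SE 0.33, adjusted p = 0.00184 by limma). Cldn7 was 545, 529 and 584 CPM with vehicle and 849, 889 and 735 CPM with the ligands, apart in every line (change 0.57, SE 0.11, adjusted p = 0.00648 by limma). Cldn3 was 373, 321 and 420 CPM and 478, 459 and 502 CPM, also apart but by less (change 0.38, SE 0.12, adjusted p = 0.0334 by limma).

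The pore formers fell to a small part of their vehicle level. Cldn15 was 227, 185 and 197 CPM with vehicle and 7.91, 4.98 and 22.8 CPM with TGFB1 and BMP2, so that 5.85% of the mean was left (change -4.23, SE 0.47, adjusted p = 0.00168 by limma). Cldn2 was 149, 215 and 96.0 CPM and 9.18, 3.07 and 13.8 CPM, with 5.67% left (change -4.11, SE 0.51, adjusted p = 0.00211 by limma). Cldn2 had a wide spread between vehicle lines and its order did not carry over, since L43 was the highest line with vehicle and the lowest with the ligands.

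Of the less characterised members, Cldn23 was 31.0, 28.2 and 30.5 CPM with vehicle and 132, 127 and 69.0 CPM with TGFB1 and BMP2. All 3 lines rose, 3.66-fold over the means (change 1.78, SE 0.25, adjusted p = 0.00268 by limma), with the smallest step in L46. Cldn12 was 71.5, 79.6 and 67.4 CPM and 57.9, 61.4 and 57.0 CPM, a small fall without overlap (change -0.30, SE 0.09, adjusted p = 0.0303 by limma). The calls of Cldn3 and Cldn12 were each lost in the 4 fits that left out 1 library of L42 or L43, vehicle or treated (adjusted p 0.0577 to 0.0906 for Cldn3 and 0.0502 to 0.0949 for Cldn12).

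How the libraries are scaled bears on the small changes. With the plain total of listed reads in place of the authors' scaling, the median change of all genes was -0.28 in this comparison, and 28.5% of the calls were higher against 49.5%. On that scale Cldn3 changed by 0.10 (adjusted p = 0.526 by limma), Cldn7 by 0.29 (adjusted p = 0.0278) and Cldn12 by -0.58 (adjusted p = 0.00356). Set against the median gene, Cldn3 and Cldn7 were above it and Cldn12 below it. A change of scaling multiplies each library by its own factor, which shifts the changes of all genes by nearly the same amount. The place of a gene against the median gene therefore stays almost the same by construction, and it cannot test whether these small changes depend on the scaling.

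**Figure D3:**
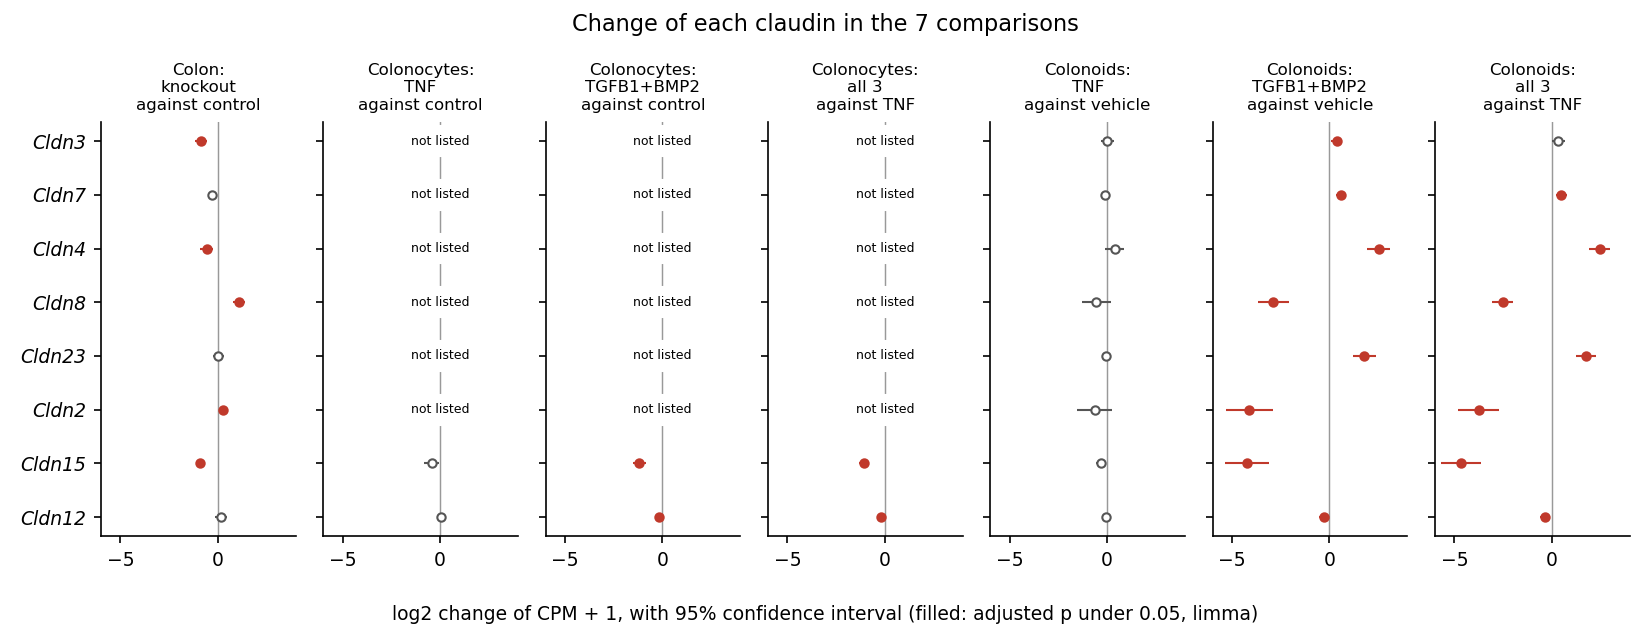
Change in mean log2(CPM + 1) with its 95% interval for each claudin in each of the 7 tables. In the colonoid tables with TGFB1 and BMP2 the points run from -4.65 (Cldn15) to 2.53 (Cldn4). With TNF alone they run from -0.64 (Cldn2) to 0.40 (Cldn4), both in the colonoids, where the intervals of Cldn2 and Cldn8 are wide. The fits have no line term, so the colonoid intervals include the spread between lines.

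The line L46 changed least in 8 of the 8 members in this comparison, as it did in 88.7% of the 6596 genes called. The submitters' sample codes of L42 and L43 begin alike and those of L46 begin differently; the labels do not say what this prefix means, so line and prefix cannot be told apart.

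Per kilobase, the family's sum was 1046 ± 105 CPM with vehicle and 2546 ± 414 CPM with TGFB1 and BMP2 (SD, n = 3). Cldn4 made up 27.2% ± 4.05 of it with vehicle and 64.8% ± 4.64 with the ligands (68.5%, 66.3% and 59.6% in L42, L43 and L46). Cldn15 went from 9.17% ± 0.957 to 0.244% and Cldn2 from 4.55% ± 2.23 to 0.110%. Cldn23 held rank 7 of 8 in the vehicle group at 16.2 ± 0.866 CPM per kilobase and rank 4 with the ligands at 59.1 ± 19.0 CPM per kilobase.

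**Figure D4:**
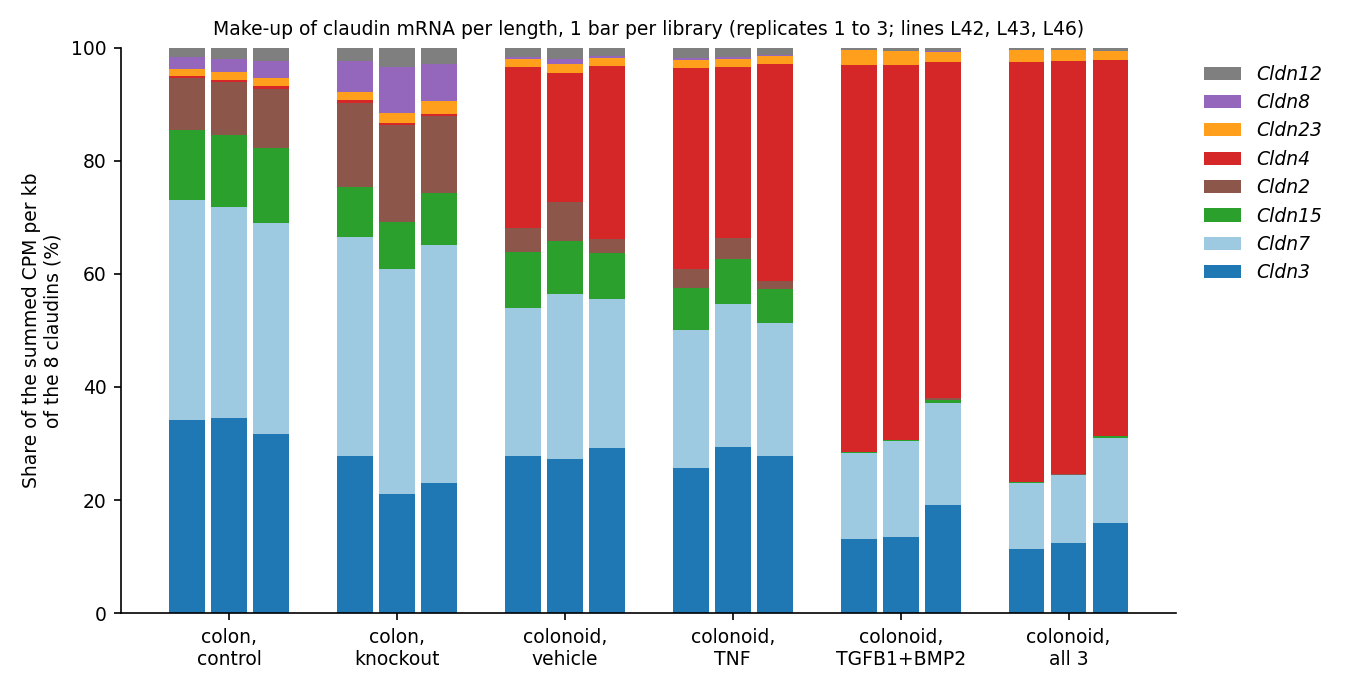
Share of each claudin in the summed level per kilobase of the 8 genes, in percent, as a stacked bar for each library of the colon and the colonoid groups. In group means, Cldn4 is under 1% in the colon, 27.2% in vehicle colonoids and 64.8% with TGFB1 and BMP2.

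Most of the other junction genes rose in the same comparison. Of 31 listed tight junction partners 23 rose and 1 fell, with a median change of 0.52, against -0.02 for all genes. Of all 11633 genes tested, 28.0% rose and 28.7% fell. Jam2, a junctional adhesion molecule, rose from 0.896 CPM to 43.8 ± 21.3 CPM (change 4.42, adjusted p = 0.0011 by limma). The scaffold gene Tjp1 rose by 0.78 on the log2 scale, and occludin (Ocln), the classic strand partner, by 0.42. Of 18 adherens junction and desmosome genes 15 rose and none fell, among them Dsp, which encodes desmoplakin, from 616 ± 105 to 2200 ± 584 CPM (change 1.82). Of the 5 genes tied to EPCAM 3 rose: Epcam itself was 1456 ± 26.7 CPM with vehicle and 3597 ± 887 CPM with the ligands (change 1.27, adjusted p = 0.00428 by limma), and Spint1 and St14 rose by 0.67 and 0.35.

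Of 14 listed transcription factors tied to claudins, 2 rose and 2 fell. Among all genes 28.0% rose and 28.7% fell, a larger share each way. The vitamin D receptor gene Vdr, known to act on Cldn2, was 196 ± 39.6 CPM with vehicle and 45.5 ± 9.08 CPM with TGFB1 and BMP2 (change -2.08, adjusted p = 0.00122 by limma), and Cdx1, another intestinal factor, fell by 1.48. Foxo1 and Klf5 each rose by 0.63. Zeb1, Zeb2, Snai1, Snai2 and Twist1, repressors of junction genes in other settings, were not listed in the colonoid or the colon tables. The epithelial markers rose too: 7 of 9 rose and 1 fell, and their sum was 9144 to 11008 CPM with vehicle and 25134 to 34072 CPM with the ligands. Krt20, a marker of surface colonocytes, was 111 ± 40.9 and 1195 ± 805 CPM. Whether the claudin changes follow these markers was not tested.

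TNF on its own changed no claudin in the colonoids by the test across lines, where 0.137% of all genes were called (16 of 11688, 0.12% higher and 0.0171% lower, and 0 to 8 genes in the fits without a library or a line). At an unadjusted p under 0.05 there were 514 genes, 1 of them a member, and DESeq2 called 116. With the line as a block, which is warranted because the same 3 lines stand in each group, 3 members and 6.14% of all genes were called. Cldn2 was 165, 234 and 105 CPM with vehicle and 119, 145 and 61.6 CPM with TNF in L42, L43 and L46. The groups overlapped, since the lines differed more than the treatment, but TNF was lower within each line (change -0.64, 95% interval -1.53 to 0.25, adjusted p = 1 by limma, and 0.000516 with the block).

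Cldn4 was 609, 419 and 694 CPM with vehicle and 698, 640 and 910 CPM with TNF, overlapping across lines and higher in each (change 0.40, 95% interval -0.09 to 0.89, adjusted p = 1 by limma, and 0.0114 with the block). Cldn8 was 9.25, 20.3 and 9.74 CPM and 7.59, 10.9 and 6.08 CPM, lower in each line (change -0.56, 95% interval -1.31 to 0.19, adjusted p 0.0162 by limma with the block). Cldn15 was 252, 202 and 216 CPM and 173, 197 and 168 CPM, and it was the 1 member of 8 whose groups did not overlap, as in 7.61% of all genes. Its change of -0.31 (95% interval -0.55 to -0.06) gave an adjusted p of 0.849 by limma and 0.0665 with the block. The other 4 moved by -0.11 (Cldn7), -0.07 (Cldn23), -0.06 (Cldn12) and 0.02 (Cldn3).

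When TNF was present, adding TGFB1 and BMP2 changed 7 of the 8 claudins in the colonoids, in a table where 54.1% of 11595 genes were called (26.4% higher and 27.7% lower). The TNF group of this table is also the treated group of the TNF table. The groups did not overlap in 8 of 8 members and in 66.3% of all genes. The median change was -0.02 for the members and -0.03 for all genes. Cldn4 was 636, 584 and 829 CPM with TNF and 4064, 4456 and 2806 CPM with all 3 ligands, a 5.53-fold difference of means (change 2.45, SE 0.22, adjusted p = 0.00138 by limma). No line with all 3 ligands came near the highest TNF line.

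Cldn15 was 158, 180 and 153 CPM with TNF and 4.98, 2.58 and 12.2 CPM with all 3, leaving 4.02% (change -4.65, SE 0.43, adjusted p = 0.00141 by limma). Cldn2 was 109, 132 and 56.1 CPM and 10.8, 3.16 and 5.83 CPM, leaving 6.66% (change -3.76, SE 0.45, adjusted p = 0.00197 by limma). Both pore formers were thus low in every line that received TGFB1 and BMP2, with or without TNF. Cldn8 was 6.91, 9.99 and 5.54 CPM and 0.329, 0.494 and 0.494 CPM, on only 14 to 24 reads per library with all 3 (change -2.53, SE 0.22, adjusted p = 0.00134 by limma).

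Cldn23 was 27.01, 28.8 and 29.7 CPM with TNF and 116, 124 and 68.8 CPM with all 3, higher in each line (change 1.77, SE 0.22, adjusted p = 0.00219 by limma). Cldn7 was 468, 523 and 544 CPM and 692, 786 and 681 CPM, without overlap (change 0.49, SE 0.11, adjusted p = 0.0109 by limma, and 0.0864 with the plain total of listed reads). Cldn12 was 74.9, 70.9 and 63.6 CPM and 52.2, 52.9 and 55.3 CPM, a fall of -0.38 (SE 0.09, adjusted p = 0.0152 by limma) that the 4 fits without 1 library of L42 or L43 left at an adjusted p of 0.051 to 0.0583. Cldn3, at 317, 394 and 416 CPM and 428, 527 and 468 CPM, just missed the threshold (change 0.34, 95% interval 0.01 to 0.67, adjusted p = 0.075 by limma). It passed with DESeq2 (0.0451) and with the line as a block (0.0374). L46 changed least in 7 of 7 members called and in 90.7% of the 6278 genes called, a count that was 4172 without L42 of the group with all 3. Among partners, 23 of 31 tight junction genes rose and 1 fell, and 15 of 18 adherens and desmosome genes rose and 1 fell. Among all genes of this comparison 26.4% rose and 27.7% fell.

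The interaction term, which asks whether the effect of TGFB1 with BMP2 differed with TNF present, passed the threshold for no member and for 0% of all genes in the colonoids (0 of 11413 by limma, 84 at an unadjusted p under 0.05, and 0 by edgeR and 1 by DESeq2). The intervals were wide: -0.40 for Cldn15 (95% interval -1.98 to 1.18), 0.36 for Cldn2 (-1.31 to 2.03), 0.36 for Cldn8 (-0.56 to 1.28) and -0.06 for Cldn4 (-0.85 to 0.73). That fit had no line term, so these intervals include the spread between lines. With the line as a block 0 genes passed by limma, and 315 had an unadjusted p under 0.05. On 1 scale joined over the 3 colonoid tables, the mean of Cldn4 was 522 CPM with vehicle, 681 CPM with TNF, 3019 CPM with TGFB1 and BMP2 and 3806 CPM with all 3. That of Cldn15 was 203, 163, 11.9 and 6.62 CPM in the same order of groups, and that of Cldn2 153, 98.7, 8.68 and 6.64 CPM. For Cldn15 the groups with all 3 and with TGFB1 and BMP2 overlapped and the other neighbours in this order did not.

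In the colonocytes, TGFB1 with BMP2 lowered both listed claudins, in a table where 30.2% of 11620 genes were called and the groups stood apart in 43.6%. The labels do not say what separates the replicate cultures, so p-values measure the spread between these libraries. Cldn15 was 21.8, 24.6 and 13.9 CPM untreated and 8.85, 7.12 and 8.26 CPM treated, so that 40.2% was left (change -1.18, SE 0.16, adjusted p = 8.39e-05 by limma). Untreated replicate 3 was low but still above all treated cultures. Cldn12 was 66.5, 62.7 and 69.3 CPM and 56.7, 58.3 and 61.0 CPM, a small fall without overlap (change -0.17, SE 0.06, adjusted p = 0.0441 by limma). That call was lost in 4 fits that each left out 1 library, untreated replicate 1 or 3 or treated replicate 1 or 2 (adjusted p 0.0924 to 0.16).

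**Figure D5:**
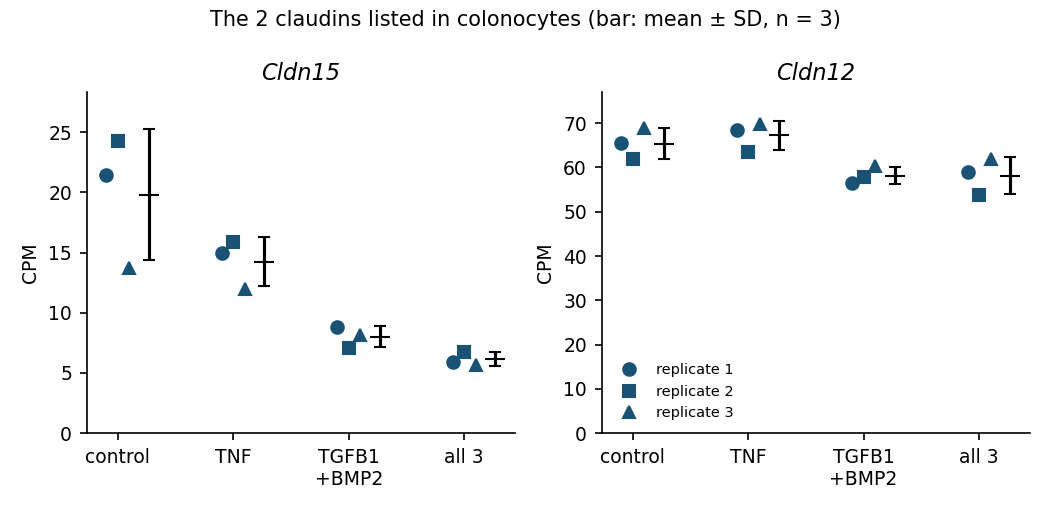
CPM of Cldn12 and Cldn15 in the colonocytes, the 2 claudins listed there, by treatment, one point per library with group means, on the scale joined over the 3 colonocyte tables. Cldn15 means are 19.8, 14.3, 8.01 and 6.14 CPM in the control, TNF, TGFB1 with BMP2 and all 3 groups, while those of Cldn12 stay between 58.2 and 67.2 CPM.

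With TNF present, the same ligands again lowered both claudins in the colonocytes, in a table where 31.9% of 11567 genes were called and 45.4% stood apart. Cldn15 was 14.8, 15.7 and 11.8 CPM with TNF and 5.89, 6.70 and 5.62 CPM with all 3 (change -1.09, SE 0.11, adjusted p = 1.17e-05 by limma). Each culture with all 3 was below each culture with TNF. Cldn12 was 67.7, 62.9 and 69.1 CPM and 58.3, 53.2 and 61.2 CPM (change -0.21, SE 0.06, adjusted p = 0.0245 by limma). It was lost in 4 fits that left out TNF replicate 1 or 3 or replicate 1 or 2 of the group with all 3 (adjusted p 0.054 to 0.108). On the plain total of listed reads the median gene moved by -0.09 in both tables, and 29.8% and 29.3% of calls were higher against 52.6% and 51.2%.

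TNF on its own called neither claudin in the colonocytes, where 6.28% of 11586 genes were called (4.61% higher and 1.67% lower) and 23.6% stood apart. On the plain total of listed reads 59.9% of the calls were higher, against 73.4%. The untreated group is shared with the TGFB1 and BMP2 table. Cldn15 was 22.2, 25.0 and 14.1 CPM untreated and 15.4, 16.4 and 12.3 CPM with TNF, overlapping because untreated replicate 3 was below 2 of the 3 TNF cultures. Its change was -0.42 (95% interval -0.81 to -0.04, adjusted p = 0.215 by limma). With the replicate number as a block, where 20.3% of all genes were called, its adjusted p was 1.53e-06. Without untreated replicate 3 the change was -0.65 (adjusted p = 0.00263 by limma), and without replicate 3 of both groups -0.54 (adjusted p = 1.1e-05 by limma). The count of all genes called ranged from 399 to 2326 over the fits without a library or without replicate 3 of both groups, and was 399 without untreated replicate 2. Cldn12 was 67.6, 63.8 and 70.7 CPM and 70.5, 65.5 and 71.9 CPM (change 0.04, 95% interval -0.09 to 0.17, adjusted p = 0.785 by limma). No interaction was called for either gene, at 0.09 for Cldn15 (95% interval -0.38 to 0.56) and -0.04 for Cldn12 (-0.22 to 0.14), where 0.00875% of 11434 genes passed by limma.

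The junction genes around these claudins were mixed in the colonocytes. With TGFB1 and BMP2, 3 of 26 listed tight junction partners rose and 9 fell, with a median change of -0.14. Of all 11620 genes tested, 15.9% rose and 14.3% fell. Cgn, which encodes the junction scaffold cingulin, was 60.0 ± 0.468 CPM untreated and 27.7 ± 2.98 CPM treated (SD, n = 3; change -1.09, adjusted p = 1.42e-07 by limma), and Cxadr fell by 0.81. Jam2 rose by 0.94. Of 14 listed adherens junction and desmosome genes 7 rose and 2 fell. Of 12 listed transcription factors tied to claudin genes 4 rose and 4 fell, Klf5 among the latter. Snai1, a repressor of epithelial junction genes, was 10.1 ± 0.550 and 81.1 ± 9.38 CPM (change 2.88, adjusted p = 1.23e-10 by limma). Vdr rose there from 14.8 to 45.5 CPM (change 1.56). Grhl2, Ovol1, Ovol2, Elf3 and Hnf4a, factors of epithelial identity, were not listed in the colonocyte tables. The 8 of 9 stromal markers listed summed to 6488 to 6953 CPM untreated and 6830 to 7440 CPM treated, with 3 rising and 1 falling. For the 3 epithelial markers listed the sums were 33.8 to 45.9 and 27.3 to 30.8 CPM. They did not move together: 1 rose (Krt8) and 1 fell (Krt19).

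Whether TGFB1 with BMP2 acted differently in the 2 systems could be tested for the 2 claudins listed in both, with 54.8% of 10359 genes called (26.6% higher and 28.3% lower in colonoids). The labels give no ligand doses for the colonocytes, so matched doses cannot be assumed. Cldn15 fell further in the colonoids, by a difference of -3.07 (SE 0.56, 95% interval -4.30 to -1.84, adjusted p = 0.00137 by limma). The difference for Cldn12 was -0.14 (95% interval -0.37 to 0.09, adjusted p = 0.271 by limma), and -0.31 (adjusted p = 0.0272) on the plain total of listed reads, where the median gene moved by -0.18 and 33.8% of the calls were higher against 48.4%. The level of Cldn15 also differed: 203 CPM in vehicle colonoids and 19.8 CPM in untreated colonocytes, on scales set separately for each system.

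Across the 12 colonoid libraries, the members fell into opposed patterns, given as a description because the libraries share lines and treatment groups. Pearson's r of log2(CPM + 1) was -0.980 between Cldn4 and Cldn15, -0.988 between Cldn4 and Cldn8, and 0.970 between Cldn2 and Cldn8. Among 10262 other genes the closest to Cldn4 were Pdlim7 (r = 0.997), Zbtb4 (0.996) and Mdfi (0.996). The closest to Cldn15 were Fgfr2, Ano9 and Igdcc4 (each 0.996), and to Cldn2 Fads2 (0.994), Dcbld1 (0.987) and Fastkd1 (0.984). Chpt1 (0.994), Slc5a6 (0.991) and Gstm3 (0.988) were closest to Cldn8. Epcam was among the 3 genes closest to Cldn23 (0.996), after Prdx5 and Slc25a22 (each 0.997). Those closest to Cldn7 were Nudt9 (0.990), Sirt7 (0.988) and Coro2a (0.987), to Cldn3 Pcnxl3 (0.982), Gga1 (0.981) and Man2b2 (0.978), and to Cldn12 Uqcrb (0.987), Orc5 (0.987) and Lyrm5 (0.976).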

How the data were processed

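The 8 members and the other gene lists were chosen with earlier results of these data known. The authors deposited 7 tables, each comparing 3 libraries with 3 and normalised on its own. Their library columns hold a signal in CPM, and the other columns hold the authors' log2 fold change and their p-value and FDR, per the file headers, which were not used here. The submitters' processing notes name the build mm10 and, without their roles, TopHat2 2.1.0, HTSeq 0.5.4p5 and edgeR 3.4.2 among the tools.

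The test was limma 3.58.1 (lmFit, eBayes with trend, two-sided) on log2(CPM + 1) of the genes with a mean of at least 1 CPM, within a table and without a replicate term, adjusted by Benjamini and Hochberg over all genes tested. Low values were whole multiples of 1 read in each library, and 100% of values came out whole within 0.05 reads, although an independent check of this step accepted it for only 4 library columns. TMM-scaled CPM of those reads, joined over tables, gave the interactions and the difference between systems; edgeR 4.0.16 and DESeq2 1.42.0 on those reads were alternatives. On these recovered counts, edgeR's quasi-likelihood test called 16 genes for TNF in the colonoids. Other alternatives were a pseudocount of 0.1, no filter, the plain total of listed reads, the replicate block and leaving out each library; leaving out the line L46 or colonocyte replicate 3 was added after seeing the data. Named genes outside the members are, from each list, at most the 4 with the largest change past the threshold per comparison, and the 3 closest to each member over the colonoid libraries with a mean of at least 5 CPM; Epcam in the colon, Tjp1 and Ocln in the colonoids and Vim in the colonocytes were added for their roles, after their values were seen. In simulated data the test recovered 66% to 100% of genes with 2-fold changes, the least for TGFB1 with BMP2 in the colonoids.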

Additional observations from a re-analysis of the deposited data

Results flagged for a closer look

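The effect of TGFB1 with BMP2 on Cldn15 differed between colonoids and colonocytes, by -3.07 on the log2(CPM + 1) scale (adjusted p = 0.00137 by limma's system by treatment term). The gene fell in both systems, in 3 of 3 lines and 3 of 3 cultures, and further in the colonoids.

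The effect on the gene listed as Cldn25 also differed between the systems, by 0.74 (SE 0.23, adjusted p = 0.0201 by limma). It rose in the colonoids (change 0.51, adjusted p = 0.0253), whereas in the colonocytes its change was -0.23 (adjusted p = 0.176 by limma), lower in 3 of 3 replicate numbers. The adjusted p was 0.0511 without replicate 1 of the colonocytes given TGFB1 and BMP2.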

How the results depend on the processing

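Of 700 refits of the members' tests, 629 kept direction and side of the threshold, 30 lost the call, 11 gained it and 30 changed sign. A test that was never called counts as kept while it stays uncalled. The interactions, with no member called, gave 122 (colonoids) and 33 (colonocytes) of the 629. TNF alone, also with no member called, gave 97 and 23. The total thus says little on how firm the calls are. Same-line pairs deviated together in all colonoid tables. In both colonocyte tables with TNF this held clearly only for replicate 3 (r = 0.522 and 0.411). There, same-number pairs of replicates 1 and 2 (r 0.163 to 0.274) were close to pairs of replicate 1 with replicate 2 (0.0822 to 0.220). With the replicate block, TNF called 2356 genes in the colonocytes (728 without it) and 1 member (0 without it), and 718 genes in the colonoids (16 without it) and 3 members (0 without it); the colonocyte interaction had 30 genes (1 without it). Replicate numbers did not pair in the colon (r -0.00611 to 0.123). For TGFB1 with BMP2 against control in the colonocytes, pairing was weak. There r was 0.0482 to 0.251 in same-number pairs and -0.347 to 0.232 in the others. The block called 4112 genes there, against 3513 without it. With the block, Cldn7 in the colon had an adjusted p of 0.0479 by limma, and Cldn25 with TGFB1 and BMP2 in the colonocytes one of 0.00271. DESeq2 called 116 genes for TNF in the colonoids, 13 for the colonocyte interaction and 1 for the colonoid interaction. The colonocyte interaction had 0 genes with pseudocount 0.1 and with edgeR and 2 on the plain total, where the difference between systems had 2 members. Cldn23 in the colonoid interaction was 0.0041, and -0.0054 with edgeR and -0.016 with DESeq2. The cause of these shifts was not tested.

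Leaving out a library, a line or a replicate number gave 2709 to 4914 genes and 3 to 5 members in the colon. It gave 399 to 2326 genes and 0 to 1 members for TNF in the colonocytes, and 1 to 2 members in both colonocyte tables with TGFB1 and BMP2. In the colonoids it gave 0 to 8 genes for TNF and 4172 to 7545 for the ligands added to TNF, and 0 to 10 for the colonocyte interaction. Changes whose sign turned ranged from -0.078 to 0.13 for Cldn23 and -0.16 to 0.19 for Cldn14 in the colon, -0.23 to 0.055 for Cldn25 with TNF in the colonocytes, and -0.12 to 0.0023 for Cldn12 and -0.090 to 0.13 for Cldn3 with TNF in the colonoids. Colonocyte interactions ranged from -0.086 to 0.014 (Cldn12), -0.070 to 0.32 (Cldn15) and -0.13 to 0.16 (Cldn25). Colonoid interactions ranged from -0.90 to 0.17 (Cldn15), -0.17 to 0.76 (Cldn2), -0.30 to 0.27 (Cldn23), -0.16 to 0.13 (Cldn25), -0.14 to 0.082 (Cldn3) and -0.26 to 0.14 (Cldn4).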

Other observations

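The tables list 2 more genes under claudin names. Cldn14, whose product is a cation-blocking claudin, was listed in the colon and the colonoids. With TNF it was 10.8, 19.6 and 13.1 CPM in L42, L43 and L46 against 4.04, 9.17 and 5.95 CPM with vehicle, higher in each line. The groups stood apart, and the change of 1.09 gave an adjusted p of 0.594 by limma, 0.0471 by DESeq2 and 0.000125 by limma with the line as a block. TGFB1 with BMP2 took it from 3.65, 8.43 and 5.43 CPM to 0.491, 0.613 and 1.04 CPM (change -1.95, adjusted p = 0.00307 by limma). When TNF was present it went from 9.85, 17.8 and 11.96 CPM to 0.845, 1.70 and 1.77 CPM (change -2.53, adjusted p = 0.00163 by limma). In colon epithelium it was 3.29, 2.81 and 2.79 CPM in controls and 2.81, 4.32 and 2.28 CPM in knockouts (change 0.03, adjusted p = 0.903 by limma).

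The name Cldn25 is listed in all 7 tables. RefSeq gives it as a synonym of both Cldnd1 and the pseudogene Cldn25-ps, so which gene it counts is uncertain. It rose with TGFB1 and BMP2 in the colonoids, without TNF (change 0.51, adjusted p = 0.0253 by limma; 0.24 and 0.135 on the plain total of listed reads) and with it (change 0.48, adjusted p = 0.00974 by limma; 0.22 and 0.078). In the colonocytes with TNF present, the same ligands changed it by -0.22 (adjusted p = 0.196 by limma, and 0.000152 with the replicate number as a block). The call without TNF was lost in the 4 fits that left out 1 vehicle library or the treated L42 library (adjusted p 0.0563 to 0.077 by limma).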
